A study of Mus musculus with 6 samples.

Results

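Pericytes and smooth muscle cells are the mural cells that wrap the endothelium of brain vessels. The mRNA levels of 9 of their genes were compared between the medial prefrontal cortex (mPFC) of *Shank3* transgenic (TG) and wild-type (WT) mice. The genes are the rows of the deposited table, 9 of 18254, whose Ensembl identifiers carry the symbols *Pdgfrb*, *Rgs5*, *Vtn*, *Abcc9*, *Higd1b* and *Notch3* (6 pericyte genes) or *Acta2*, *Tagln* and *Myh11* (3 smooth muscle genes) in the GENCODE mouse annotation M21. All 9 passed the filter of at least 5 normalized counts on average, as did 16714 genes in total.

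The TG mice carried an EGFP-*Shank3* transgene, which adds *Shank3*, a scaffold protein gene of excitatory synapses, to the endogenous gene. Its promoter is not given in the sources used here. The controls were WT littermates without it, and both genotypes were males of 10 to 12 weeks on a C57BL/6J background. There were 6 libraries, numbered TG-1, TG-2, TG-3, WT-1, WT-2 and WT-3, and each held the pooled mPFC RNA of 2 mice of 1 genotype. A replicate is therefore a pool, and the p-values measure the spread between 3 pools of each genotype. The vessels were not isolated, so a change in the number of mural cells and a change in RNA per cell cannot be told apart in this bulk tissue. *Shank3* itself was at 17470, 19003 and 16310 normalized counts in TG-1, TG-2 and TG-3 and at 8374, 8173 and 6791 in WT-1, WT-2 and WT-3, higher in every TG library, in the direction of the labels. The cortical excitatory neuron marker *Slc17a7* was at 42300, 42780 and 45670 normalized counts in TG and 39220, 40000 and 39790 in WT. It was thus higher in every TG library, with a log2 fold change of 0.13 (unadjusted p = 0.0983, limma). Of 4 such neuron markers 2 were higher and 2 lower in TG.

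The libraries numbered 3 stood apart from the other 4 in both genotypes and deviated from their genotype means together. Numbers 1 and 2 were less distinct, since TG-1 and TG-2 also deviated together with the WT library of the other of these numbers. *Pecam1*, an adhesion molecule of endothelial cells, was at 2359 normalized counts in TG-3 and 2560 in WT-3, against 657.1 to 810.8 in the others. It is not typical of its cell type, since of 15 endothelial genes 3 were above the other 4 libraries in both libraries numbered 3 and 5 were below them in both. Values without the libraries numbered 3 are given beside those from all 6 for the 9 genes, and for some of the other genes and lists.

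In the brain, pericytes lie along capillaries inside the basement membrane and help to maintain the blood-brain barrier. Smooth muscle cells ring the arteries and arterioles and set vessel diameter with a contractile apparatus of alpha actin and smooth muscle myosin. Endothelial PDGF-B recruits mural cells through the receptor encoded by *Pdgfrb*, and Notch ligands on the endothelium act on *Notch3* in both mural cell types.

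Mural cell RNA was readily measured. Per kilobase of summed exons, the mean level over the 6 libraries was highest for *Vtn* (771 normalized counts per kb) and *Rgs5* (724), followed by *Acta2* (247), *Tagln* (156) and *Pdgfrb* (145). *Notch3* (80.5), *Myh11* (74.5), *Higd1b* (57.4) and *Abcc9* (39.9) were the lowest on this scale. The neighbours *Vtn* and *Rgs5*, *Tagln* and *Pdgfrb*, and *Notch3* and *Myh11* in this order differed by less than the larger of their SDs over the libraries.

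For none of the 9 genes was a difference between genotypes found that exceeded the spread of the pools. The log2 fold changes of *Shank3* TG over WT lay between −0.11 for *Abcc9* and 0.16 for *Myh11*, and all adjusted p-values were 0.9999 (limma's two-sided moderated test, Benjamini-Hochberg adjustment over 16714 genes). Over all tested genes, 0 (0%) passed 0.05 by the adjusted p-value and 336 (2.01%) by the unadjusted p-value, while 0 of the 9 genes passed by either. With the replicate number as a block these shares were 0.00598%, a single gene, *Shank3*, and 4.98%, and again 0 of the 9 genes were among them. In none of the 9 genes did the values of the genotypes separate without overlap, a pattern found in 6.02% of the tested genes.

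**Figure D1:**
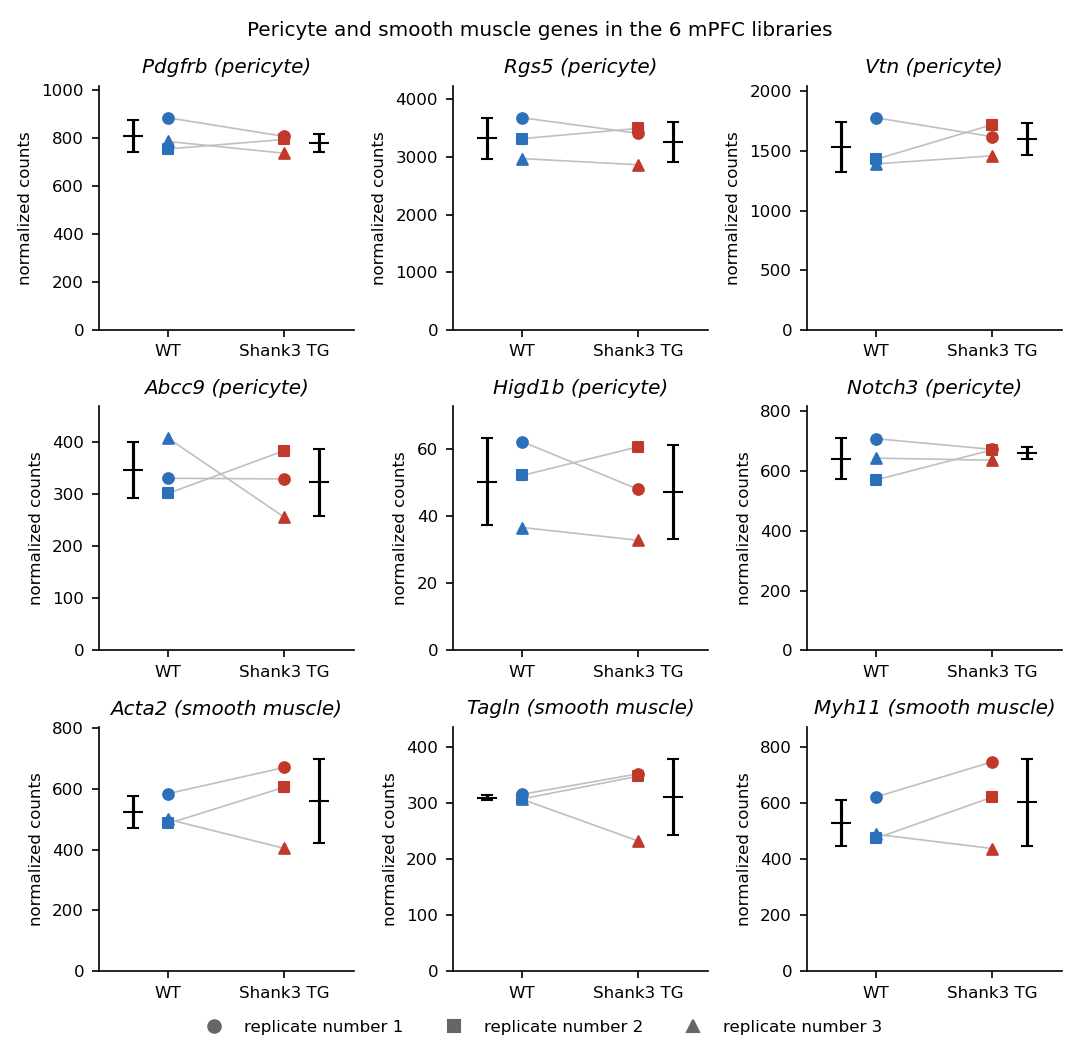
Normalized counts (y axis, from 0) of the 9 genes in WT (blue) and Shank3 TG (red) libraries. Marker shapes give the replicate number, grey lines join libraries of the same number, and black bars are the mean ± SD of 3 libraries. The genotypes overlap in every panel, and TG-3 is the lowest library in 7 of 9 panels.

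The receptors were the most even of the genes. *Pdgfrb* encodes the PDGF receptor beta of mural cells (ENSMUSG00000024620, GRCm38 chr18:61045150-61085061, plus strand). It was at 807.5, 794.8 and 737.3 normalized counts in TG-1, TG-2 and TG-3 and at 885.1, 755.6 and 786.3 in WT-1, WT-2 and WT-3. WT-1 was the highest library and TG-3 the lowest, and their ratio was 1.20. The means were 779.9 ± 37.4 in TG and 809.0 ± 67.7 in WT (SD, n = 3 each), a log2 fold change of −0.05 with an SE of 0.09 (95% interval −0.27 to 0.16).

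*Notch3*, the Notch receptor of mural cells (ENSMUSG00000038146, chr17:32120820-32166852, minus strand), was at 673.1, 671.7 and 636.7 in TG and, in the same order, at 708.8, 571.0 and 643.9 in WT. The TG libraries lay close together inside the wider WT range, with 660.5 ± 20.6 against 641.2 ± 68.9 normalized counts (SD, n = 3 each). Its log2 fold change was 0.05 with an SE of 0.10 (95% interval −0.19 to 0.28).

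Of the other pericyte genes, *Rgs5*, a regulator of G protein signalling, was the most abundant (ENSMUSG00000026678, chr1:169655501-169695813, plus strand). It was at 3413, 3498 and 2867 normalized counts in TG-1, TG-2 and TG-3, against 3682, 3321 and 2974 in the WT libraries of the same numbers. Within each genotype the library numbered 3 was the lowest. The means of 3259 ± 342.3 and 3326 ± 354.4 (SD, n = 3 each) corresponded to a log2 fold change of −0.03 with an SE of 0.11 (95% interval −0.28 to 0.23).

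*Vtn*, which encodes the adhesive glycoprotein vitronectin (ENSMUSG00000017344, chr11:78499091-78502324, plus strand), had 1618, 1720 and 1459 normalized counts in TG and 1777, 1430 and 1391 in WT. WT-1 was the highest and WT-3 the lowest, so the TG values fell inside the WT range. The difference was 0.07 on the log2 scale with an SE of 0.11 (95% interval −0.20 to 0.33).

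*Abcc9* encodes SUR2, the sulfonylurea receptor subunit of the vascular potassium channel that closes on ATP (ENSMUSG00000030249, chr6:142587862-142702315, minus strand). It had 328.9, 383.2 and 255.4 normalized counts in TG and 330.2, 301.3 and 406.8 in WT. The libraries numbered 3 held both extremes, WT-3 the highest and TG-3 the lowest. The log2 fold change was −0.11 with an SE of 0.18 (95% interval −0.52 to 0.30), and it was 0.17 from the libraries numbered 1 and 2 alone. *Kcnj8*, the pore subunit that pairs with it and is named here for that role, was at 117.9, 105.3 and 89.3 against 118.0, 96.6 and 84.6, a log2 fold change of 0.07 with an SE of 0.18. The partner thus had no high value in WT-3.

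*Higd1b*, a small gene of the hypoxia-inducible domain family (ENSMUSG00000020928, chr11:102835849-102838040, plus strand), was the least abundant by count. Its values were 47.9, 60.5 and 32.7 in TG and 62.0, 52.0 and 36.5 in WT. The library numbered 3 was the lowest in both genotypes, and the ratio of highest to lowest, 1.90, was the widest of the 9 genes. The log2 fold change of −0.10 had an SE of 0.29 and a 95% interval from −0.79 to 0.58.

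For each of the 3 smooth muscle genes TG-1 was the highest of the 6 libraries and TG-3 the lowest. TG-3 was also the lowest for 4 of the 6 pericyte genes. The share of all tested genes that were highest in TG-1 and lowest in TG-3 was not counted. *Acta2*, the alpha actin of vascular smooth muscle (ENSMUSG00000035783, chr19:34241090-34255590, minus strand), was at 671.0, 606.0 and 404.1 normalized counts in TG-1, TG-2 and TG-3 and at 584.9, 486.2 and 499.6 in WT-1, WT-2 and WT-3. The TG libraries held both the highest values, in TG-1 and TG-2, and the lowest, in TG-3. The means were 560.3 ± 139.2 and 523.6 ± 53.6 (SD, n = 3 each), with a log2 fold change of 0.07, an SE of 0.19 and a 95% interval from −0.37 to 0.51.

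Actin genes are close copies of each other, which matters for how reads are assigned. The first 60 coding bases of *Acta2* are given here, to show how far they differ, with the stretches aligned to them in 2 other muscle actins, from the GENCODE M21 transcripts on GRCm38. Capitals mark bases that differ from *Acta2* in the alignment.
Acta2: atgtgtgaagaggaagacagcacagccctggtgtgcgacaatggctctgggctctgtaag
Actg2: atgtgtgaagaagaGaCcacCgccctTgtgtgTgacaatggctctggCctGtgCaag
Acta1: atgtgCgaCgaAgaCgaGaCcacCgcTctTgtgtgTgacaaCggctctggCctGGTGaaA
The enteric actin gene *Actg2* differed from *Acta2* at 8 aligned bases and lacked 3, and the skeletal actin gene *Acta1* differed at 17. Over the whole coding sequence *Acta2* shared 84.2% of bases with *Actg2* and 85.4% with *Acta1*, but only 1.39% of its 31-base words occurred in transcripts of any other gene. *Actg2*, with at most 8.33 normalized counts in a library, did not pass the filter. *Acta1* was at 280.6, 258.8 and 265.0 in TG and 316.2, 257.2 and 217.5 in WT, without a low value in TG-3.

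*Myh11*, the smooth muscle myosin heavy chain (ENSMUSG00000018830, chr16:14194535-14291372, minus strand), was at 748.4, 622.0 and 437.9 normalized counts in TG and, in the same order, at 622.8, 475.0 and 488.8 in WT. TG-1 was again the highest and TG-3 the lowest. The means of 602.8 ± 156.2 and 528.9 ± 81.6 (SD, n = 3 each) gave the largest estimate of the 9 genes, a log2 fold change of 0.16 with an SE of 0.20 (95% interval −0.30 to 0.63). Of its 31-base words 0.905% occurred in other genes.

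*Tagln* encodes transgelin, or SM22 alpha, an actin-binding protein of smooth muscle (ENSMUSG00000032085, chr9:45929619-45936058, minus strand). It was at 352.1, 347.8 and 231.9 in TG-1, TG-2 and TG-3 and at 315.5, 307.3 and 306.4 in WT-1, WT-2 and WT-3. The WT libraries were nearly equal, with 309.7 ± 5.02, whereas the TG libraries spread over 310.6 ± 68.2 (SD, n = 3 each). The log2 fold change was −0.02 with an SE of 0.17 (95% interval −0.41 to 0.37).
The *Tagln* level is less certain than the others. On the opposite strand *Gm48529*, an antisense gene not analysed here, shares 1241 exon bases with it, *Pcsk7* shares 108, and 62.2% of the 31-base words of *Tagln* occur in another gene on either strand. The kit marked the strand, but whether the quantification used it is not given in the sources used here. For *Notch3* this share was 6.59%, for *Abcc9* 3.18% and for *Rgs5* 0.376%, and for *Pdgfrb*, *Vtn* and *Higd1b* it was 0%.

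**Figure D2:**
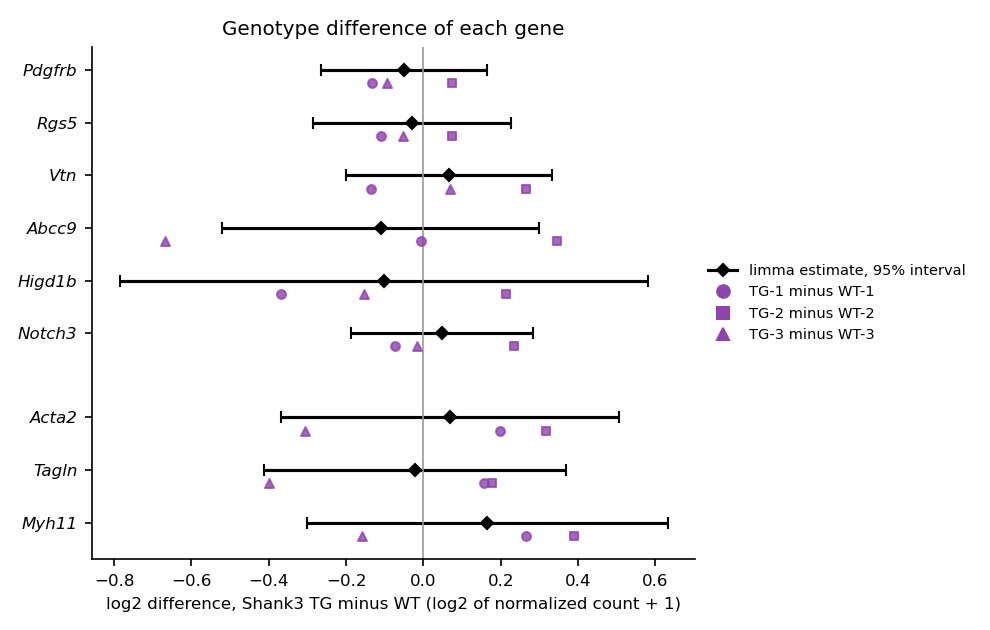
Log2 difference of Shank3 TG minus WT (x axis) for each gene. Black diamonds with bars are limma's estimate and 95% interval, and purple markers are the differences between libraries of the same number. Every interval contains 0, and at number 3 the smooth muscle genes lie between −0.40 and −0.16 while at numbers 1 and 2 they lie between 0.16 and 0.39.

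The libraries of the same replicate number were then set side by side. All 3 smooth muscle genes were higher in *Shank3* TG at numbers 1 and 2 and lower at number 3. For *Acta2* the log2 differences at numbers 1, 2 and 3 were 0.20, 0.32 and −0.31, for *Tagln* 0.16, 0.18 and −0.40, and for *Myh11* 0.26, 0.39 and −0.16. Of all tested genes 9.80% had this pattern, and none of the 6 pericyte genes did.
All 6 pericyte genes were lower in TG at number 1 and higher at number 2, as were 26.9% of all tested genes. At number 1 the differences ran from −0.37 for *Higd1b* to −0.01 for *Abcc9*, and at number 2 from 0.07 for *Pdgfrb* and *Rgs5* to 0.35 for *Abcc9*. At number 3 only *Vtn* was higher, by 0.07. From the libraries numbered 1 and 2 alone, the log2 fold change was −0.03 for *Pdgfrb*, −0.02 for *Rgs5*, 0.07 for *Vtn*, −0.08 for *Higd1b* and 0.08 for *Notch3*. In 0 of the 9 genes were the 3 differences in the same direction, against 24.8% of all tested genes.

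The spread of the smooth muscle genes came mainly from the TG libraries. The log2 level in TG-3 minus the mean of TG-1 and TG-2 was −0.66 for *Acta2*, −0.59 for *Tagln* and −0.64 for *Myh11*. In WT-3 the same difference was −0.09, −0.02 and −0.15, so the other library with that number held no such drop. Among the pericyte genes *Higd1b* was low in both, with −0.70 and −0.62, and *Rgs5* and *Vtn* were moderately lower in both, with −0.27 and −0.23 and with −0.19 and −0.20. *Abcc9* differed in sign, −0.47 in TG-3 and 0.37 in WT-3. *Pdgfrb*, with −0.12 and −0.06, and *Notch3*, with −0.08 and 0.02, had the smallest differences in TG. The median over all tested genes was −0.0036 in TG and −0.0002 in WT.
Without TG-3 the log2 fold changes of the smooth muscle genes were 0.29 for *Acta2* (unadjusted p = 0.0498, limma), 0.18 for *Tagln* (unadjusted p = 0.153, limma) and 0.38 for *Myh11* (unadjusted p = 0.0419, limma). Without TG-1, they were −0.08, −0.12 and −0.01. TG-3 was the lowest library for all 3 genes and TG-1 the highest. These shifts, and the p-values without TG-3, therefore follow from which library was left out. With the libraries numbered 1 and 2 alone the log2 fold changes were 0.26, 0.17 and 0.33 in the same gene order. The lowest adjusted p-value of any of the 9 genes under any setting was 0.949, so no direction can be given for these genes.

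**Figure D3:**
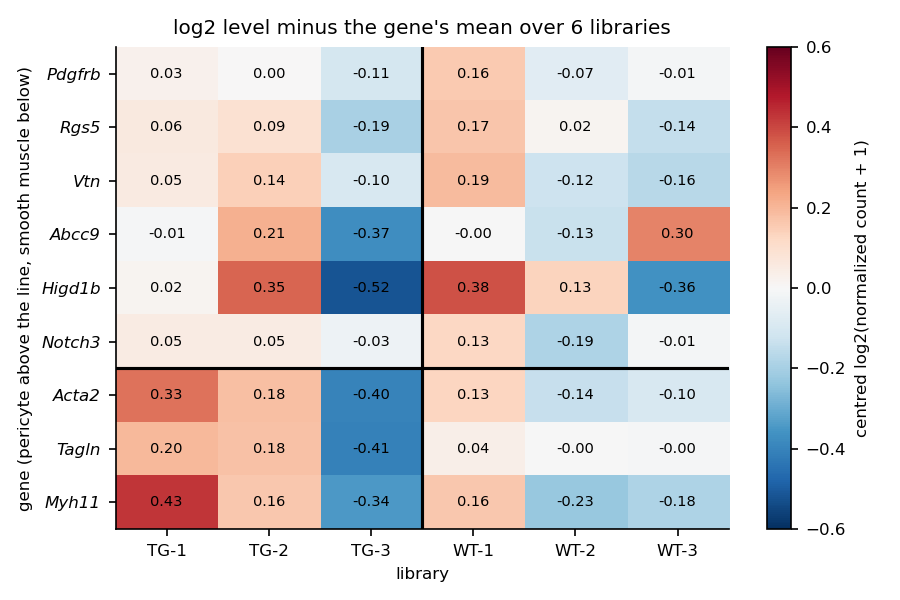
Level of each gene in each library as log2(normalized count + 1) minus the gene's mean over the 6 libraries (colour and printed value). Rows above the line are pericyte genes and rows below are smooth muscle genes. Smooth muscle genes are at 0.20 to 0.43 in TG-1 and −0.41 to −0.34 in TG-3.

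The ratio of highest to lowest library summarised this spread. It was 1.66 for *Acta2*, 1.52 for *Tagln* and 1.71 for *Myh11*, a median of 1.66, against a median of 1.28 over the pericyte genes and of 1.28 over all tested genes averaging 50 normalized counts or more. Each of the 3 smooth muscle genes had a larger SD in TG than in WT, and 2 of the 6 pericyte genes did. The share of all tested genes with a larger SD in TG was not counted.

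The contrast of the 2 cell types was taken as the mean log2 level of the smooth muscle genes minus that of the pericyte genes in each library. It was −0.10, −0.36 and −0.55 in TG-1, TG-2 and TG-3 and −0.45, −0.45 and −0.42 in WT-1, WT-2 and WT-3. The WT libraries were almost the same, while the TG libraries lay on both sides of them. The means were −0.34 ± 0.23 and −0.44 ± 0.02 (SD, n = 3 each), so the difference of 0.10 was smaller than the spread in TG. By replicate number it was 0.34, 0.09 and −0.14, it was 0.22 from numbers 1 and 2 alone, and it was −0.02 without TG-1.
The median log2 fold change was −0.04 over the 6 pericyte genes, 2 higher and 4 lower, and 0.07 over the 3 smooth muscle genes, 2 higher and 1 lower. With each library left out the first ran from −0.07 without TG-2 to 0.07 without TG-3, and the second from −0.08 without TG-1 to 0.29 without TG-3, so neither had a stable sign. From numbers 1 and 2 alone they were 0.02 and 0.26. The median of all tested genes was −0.0037.

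The genes with the most similar profile over the 6 libraries were sought among 13447 tested genes averaging 50 normalized counts or more, by the root mean square difference of centred log2 values. For the smooth muscle mean they were *Cd93*, a receptor best known in endothelial cells, at 0.05, *Gm8186* at 0.05, *D630045J12Rik* at 0.06, the histamine receptor gene *Hrh1* at 0.08 and *Gmds* at 0.08, where the root mean square of the profile itself was 0.23. *Cd93* was at 443.1, 399.9 and 296.9 normalized counts in TG, against 389.5, 321.2 and 329.4 in WT. These genes were chosen by their profile, so that their order of libraries follows from the choice.
For the pericyte mean they were *Fbxw4*, *Ppfibp1*, *Gja1* and *Mlc1* at 0.03 each and *Lamtor4* at 0.04, with 0.13 for the profile itself. *Gja1* and *Mlc1* are best known from astrocytes. *Gja1* was at 4551, 4719 and 3810 in TG and 4922, 4280 and 4008 in WT.

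Further genes listed for the same cells were counted. In this bulk tissue their RNA need not come from mural cells alone. Of 14 other pericyte genes, 10 were higher and 4 lower in TG, 0 had an unadjusted p-value under 0.05 and the median log2 fold change was 0.06 (0.03 to 0.16 with each library left out, the highest without TG-3). The abundant proteoglycan gene *Cspg4* was at 540.9, 529.1 and 533.2 in TG and 577.8, 510.3 and 631.7 in WT. The aminopeptidase gene *Anpep* was at 206.1, 229.0 and 183.6 against 125.0, 121.8 and 215.3. WT-3 fell among the TG values, and the log2 fold change was 0.46 with an SE of 0.23 (unadjusted p = 0.0779, limma), or 0.73 without WT-3. From the libraries numbered 1 and 2 alone, which also leaves out WT-3, it was 0.81 (unadjusted p = 0.000597, adjusted p = 0.684, limma).
Of 17 other smooth muscle genes 16 were tested, with 9 higher, 7 lower, 0 at an unadjusted p-value under 0.05 and a median of 0.02 (−0.09 without WT-2 to 0.11 without TG-3). Of the 17 genes 5 were highest in TG-1, 4 were lowest in TG-3, and 0 were both, unlike *Acta2*, *Tagln* and *Myh11*. The most abundant, the tropomyosin gene *Tpm1*, was at 5638, 5756 and 5483 in TG and 5536, 5676 and 5450 in WT. The caldesmon gene *Cald1* was at 765.5, 779.0 and 1049 against 710.5, 779.5 and 1309, and so was highest at number 3 in both genotypes. The regulatory light chain gene *Myl9* was at 502.9, 483.7 and 373.3 in TG and 494.9, 443.7 and 317.1 in WT, and so was lowest at number 3 in both. The kinase gene *Mylk*, whose product phosphorylates that light chain, was at 572.8, 510.2 and 492.0 against 471.8, 454.2 and 526.9. The genotypes overlapped in *Tpm1*, *Cald1*, *Myl9* and *Mylk*.

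The ligands of the receptors did not pass the test either. *Pdgfb*, the main ligand of *Pdgfrb*, was at 890.6, 1053 and 916.1 normalized counts in TG and 899.5, 882.6 and 852.6 in WT. TG-1 lay within the WT range, and the log2 fold change was 0.11 with an SE of 0.09, or 0.04 without TG-2. Over the 5 genes of the PDGF ligands and the alpha receptor, 3 were higher and 2 lower, with a median of 0.11, or 0.01 without TG-2.
*Jag1*, a ligand of *Notch3*, was at 215.5, 224.4 and 234.6 against 224.1, 184.8 and 185.4, with overlap through WT-1 and a log2 fold change of 0.19 (SE 0.12), or 0.11 from numbers 1 and 2 alone. Of the 4 Notch ligands 3 were higher and 1 lower (median 0.08, but −0.02 from numbers 1 and 2 alone), of the 3 other Notch receptors 2 and 1 (median 0.11, but −0.01 without TG-2), and of the 6 Notch effectors and targets 3 and 3 (median −0.01, but 0.06 from numbers 1 and 2 alone and 0.08 without TG-3). *Hey2*, singled out after its values were seen, was the 1 effector without overlap, at 114.9, 124.9 and 120.5 against 99.0, 110.2 and 84.2. Its log2 fold change was 0.30 with an SE of 0.15 (unadjusted p = 0.0814, limma), or 0.20 without WT-3 and 0.20 from numbers 1 and 2 alone.
The 2 subunits of the neuronal counterpart of the *Abcc9* channel, *Kcnj11* and *Abcc8*, had log2 fold changes of 0.11 and −0.02. Of 12 tested paralogues of the 9 genes 6 were higher and 6 lower, with a median of 0.02 (0.001 to 0.04 with each library left out).

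Serum response factor and its myocardin-family coactivators drive the contractile genes of smooth muscle. *Myocd*, the coactivator of smooth and cardiac muscle, was at 25.0, 23.3 and 44.9 normalized counts in TG-1, TG-2 and TG-3 and at 21.03, 8.33 and 3.57 in WT-1, WT-2 and WT-3. The genotypes did not overlap, although TG-2 and WT-1 were close, and these are low levels. Its log2 fold change was 1.65 with an SE of 0.58 (unadjusted p = 0.0223, adjusted p = 0.9999, limma), and it was 1.10 without WT-3 and 2.23 without WT-1. From the libraries numbered 1 and 2 alone it was 0.81 (unadjusted p = 0.118, limma), while TG-3 and WT-3 differed by 3.33. The highest *Myocd* level was in TG-3, the library in which *Acta2*, *Tagln* and *Myh11* were lowest. The other members, *Srf*, *Mrtfa* and *Mrtfb*, had log2 fold changes of 0.06, 0.10 and 0.04. In this list 4 of 4 were higher and the median of the 4 was 0.08. *Mrtfa* too did not overlap, at 1670, 1688 and 1716 against 1582, 1516 and 1634 (unadjusted p = 0.184, limma). *Srf* was at 1638, 1634 and 1896 against 1669, 1600 and 1679, with only TG-3 above the WT libraries.
The factor's binding motif, the CArG box, was looked for by its name's usual pattern on both strands of the RefSeq promoter windows (GRCm38). Windows were at hand for *Rgs5*, *Vtn*, *Abcc9*, *Notch3* and *Acta2*, 5 of the 9 genes, and 0 of the 5 held it, against 1.63% of 32851 windows. This says only that the letters are not in these windows.

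**Figure D4:**
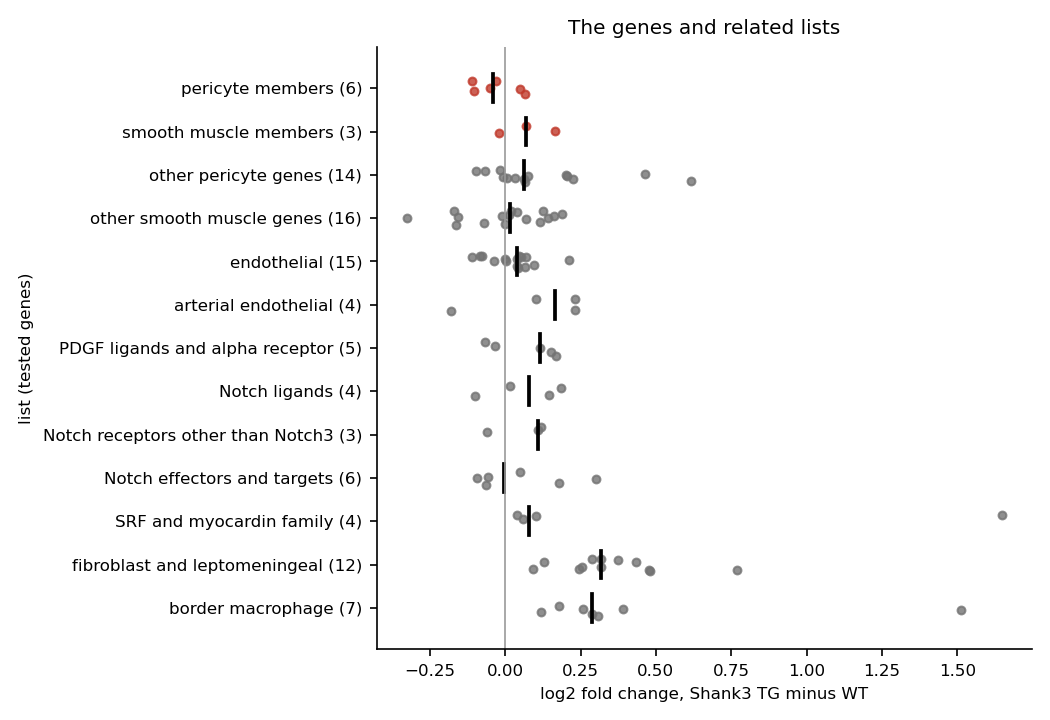
Log2 fold change of Shank3 TG over WT (x axis) of each tested gene in the 2 groups (red) and in related lists (grey), with the number tested in parentheses and the median as a black line. The medians are −0.04 and 0.07 in the 2 groups and 0.32 in the fibroblast and leptomeningeal list.

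Markers of neighbouring vascular and border cells were read in the same libraries. Of 15 endothelial genes 10 were higher and 5 lower, 0 at an unadjusted p-value under 0.05, with a median of 0.04 (−0.02 without WT-2 or WT-3) and a summed level of 17600 to 18210 normalized counts in TG and 16820 to 18620 in WT. Without *Pecam1* the sums were 17396, 16882 and 15304 in TG and 17868, 16162 and 15697 in WT, lowest at number 3 in both genotypes. Of 4 arterial endothelial genes 3 were higher (median 0.17, or 0.03 without TG-1, 0.06 without WT-3 and 0.28 without TG-3), with sums of 492.2, 411.1 and 357.5 in TG and 429.8, 390.0 and 343.2 in WT. This list too was highest in TG-1, but both libraries numbered 3 were low.
Fibroblast and leptomeningeal genes were higher in TG in 12 of 12 cases, with a median of 0.32, 5 unadjusted p-values under 0.05 and summed levels of 3834 to 4508 in TG against 3127 to 3770 in WT. Over all tested genes 8114 of 16714 were higher, 2.01% had an unadjusted p-value under 0.05 and 6.02% did not overlap. *Col1a2*, the most abundant of the list, overlapped, with a log2 fold change of 0.09 (unadjusted p = 0.546, limma). The transporter gene *Slc47a1* was at 257.5, 183.6 and 228.7 in TG and 111.6, 124.2 and 155.7 in WT, without overlap. Its log2 fold change was 0.77 with an SE of 0.18 (unadjusted p = 0.00286, adjusted p = 0.9999, limma), and those of *Ogn*, *Slc13a4* and *Fmod*, also without overlap, were 0.48 (0.31 without WT-1), 0.43 and 0.32.
Border macrophage genes were higher in 7 of 7 cases (median 0.29, or 0.43 from numbers 1 and 2 alone), with sums of 430.3 to 534.1 in TG and 336.8 to 456.6 in WT. Red cell genes were higher in 5 of 5 cases (median 0.17, or −0.08 without WT-2 and −0.07 without TG-3), with sums of 6909 to 10650 and 6013 to 9643. Between libraries of the same number their median differences were 0.05, 0.28 and 0.15 at numbers 1, 2 and 3. Choroid plexus genes were higher in 5 of 7 cases. Their median was 0.50, or 0.28 without TG-2, 0.29 without TG-3, 0.30 without WT-2 and 0.70 without WT-3. It was 0.42 from numbers 1 and 2 alone and 0.33 with 5 added to each count before the log. Where only genes averaging 50 normalized counts or more were kept it was 1.18. The sums of these genes were 182.6 to 604.7 and 116.6 to 206.6, with *Ttr*, the transthyretin gene, at 126.7, 22.9 and 445.2 against 14.3, 12.6 and 41.7. Without *Ttr* the sums were 137.9 to 159.7 in TG and 102.3 to 164.9 in WT. The most abundant of the rest, *Kl*, *Kcnj13* and *Aqp1*, had log2 fold changes of −0.07, 0.50 and 0.92, and *Kcnj13* did not overlap. *Otx2*, which marks that epithelium, did not pass the filter, at 0.63, 0 and 7.49 in TG and 6.12, 0 and 3.14 in WT. No gene of these lists passed the adjusted threshold in this fit. The part of these cells in the levels of the 9 genes was not tested.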

How the data were processed

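The authors pooled the mPFC of 2 mice per RNA sample, made libraries with a stranded mRNA kit, quantified transcripts with Salmon 0.9.1 (GRCm38, corrected for GC bias), imported them with tximport in R 3.6.0 and normalized them in DESeq2 1.19.11. The deposited signal is these normalized counts, for 18254 genes and 6 libraries, summing to between 28363967 and 29447717 in a library. No value above 0 was exactly a whole number, reads per gene were not recovered, and no counting interval is given. Identifiers were matched to GENCODE M21 (18215 named). Genes with a mean of at least 5 were tested on log2(normalized count + 1) with limma 3.58.1 in R 4.3.3 (lmFit and eBayes with a trend, genotype only), with a threshold of 0.05 on the Benjamini-Hochberg adjusted p. Fold changes are on that log2 scale and understate those of low genes. The exact two-sided permutation p of the 9 genes was 0.7 to 1.0, where 3 against 3 libraries cannot go below 0.1.

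Deviations from the genotype means correlated across genes with r = 0.302, 0.332 and 0.616 for TG and WT libraries numbered 1, 2 and 3, against 0.266 for TG-1 with WT-2, 0.227 for TG-2 with WT-1 and −0.443 to −0.389 between number 3 and the others, so the replicate numbers were taken as pairs in a fit with a block. The alternatives were 17 settings. Identity of coding sequences came from pairwise alignment, and shared words of 31 bases from the annotated transcripts. The genes and lists were chosen with earlier results of these data known. Of each list the most abundant genes, at most 4, and those with an unadjusted p under 0.05 could be named, together with the 5 most similar genes per group. *Kcnj8*, *Actg2* and *Acta1* were added for their roles. *Hey2*, *Pecam1*, *Otx2*, *Des*, *Synpo2*, *Pln* and *Casq2* were added after their values were seen.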

Additional observations from a re-analysis of the deposited data

How the results depend on the processing

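The number of genes with an adjusted p-value under 0.05 (limma) was 0, and it was 1 (*Shank3*) after rescaling to the same upper quartile, with the robust option, with the replicate block and with the libraries numbered 1 and 2 alone, 26 (*Slc47a1* among them) when z-scores were rescaled by their own width as an empirical null, and 0 to 1 when each library was left out. The replicate block changed no call of the 9 genes. Of the 9 genes' values under the alternatives, 138 kept their direction and side of the threshold and 14 changed direction, all when libraries were left out. With numbers 1 and 2 alone *Abcc9* was at 0.17 and *Tagln* at 0.17. With each library left out, the log2 fold change ranged from −0.10 to 0.0157 for *Pdgfrb*, −0.11 to 0.0605 for *Rgs5*, −0.24 to 0.0482 for *Abcc9*, −0.31 to 0.13 for *Higd1b*, −0.0329 to 0.12 for *Notch3*, −0.0765 to 0.29 for *Acta2*, −0.12 to 0.18 for *Tagln* and −0.0081 to 0.38 for *Myh11*, and for *Kcnj8* from −0.0441 to 0.19. That of *Vtn* stayed above 0 at 0.001 to 0.18. The cause of these changes was not tested. With 3 pools a genotype, 95% intervals of −0.79 to 0.58 for *Higd1b* and −0.30 to 0.63 for *Myh11* leave sizeable differences undetected. Reads per gene were not recovered, so counting error is not separated from the spread between pools.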
